A study of Mus musculus with 12 samples.

Results

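The nuclear genes of respiratory complexes III, IV and V were taken as the protein-coding genes whose symbols begin with Uqcr, Uqcc or Atp5, or with Cox followed directly by a digit. Of 56350 gene rows, 65 carried such a symbol, 9 of these were pseudogenes, and 56 gene identifiers with 55 different symbols remained, because Atp5o has 2 identifiers. Complex III had 11 of them (8 subunits and 3 assembly factors), complex IV had 27 (17 subunits and 10 assembly or other factors) and complex V had 18 (17 subunits and 1 factor). Testing required 3 or more libraries with a value of 10 or higher, and 50 of the 56 genes met it: 10 of complex III, 24 of complex IV and 16 of complex V.

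RNA-seq libraries of polyadenylated RNA were made from the apex of the left ventricle of mice 8 weeks after transverse aortic constriction (TAC), an operation that narrows the aorta and loads the left ventricle with pressure, or after a sham operation. The 4 groups of 3 libraries were lincRNA-p21 knockouts after TAC, lincRNA-p21 knockouts after sham, controls after TAC and controls after sham. The knockout was global, present in the whole body and not only in heart cells, and the controls were heterozygous littermates, so that every animal carried at least one knockout allele and none was labelled wild type. The labels name no strain, age or number of animals per library, and p-values therefore measure the spread between libraries labelled as replicates.

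Between 10323605 and 13238934 reads per library fell in genes. Trp53cor1, the gene of lincRNA-p21, had 0 of 72710005 reads in the 6 knockout libraries, which allows up to 0.0413 CPM (3 reads over the group), against 11 of 69704245 reads in the 6 control libraries, in 4 of which it had a read. All 12 cardiomyocyte markers examined, among them Myh6, Tnnt2 and Ryr2, were present in every group. Control sham replicate 3 stood apart from the libraries of its group: mitochondrially encoded genes took 12.5% of its reads, against up to 18.7% in the group. This share holds no reads of mt-Co2, mt-Co3, mt-Atp6 and mt-Atp8, which were listed at 0 in every library. It also differed between groups. It was 19.06% to 19.99% in knockouts after TAC, above every library of the other groups. In controls after TAC it was 15.50% to 17.14%, and in knockouts after sham 14.73% to 16.77%. The part of this share in the comparison of knockouts and controls after TAC was not tested. The genes of complexes III, IV and V together took 2.44% to 3.05% of reads in knockouts after TAC, 3.00% to 3.28% in knockouts after sham, 1.95% to 2.06% in controls after TAC and 2.69% to 3.83% in controls after sham. Uqcrc1 and Atp5a1, listed near 0 in all libraries, are almost absent from these shares. In RNA from bulk tissue, fewer cells of a type and less RNA per cell cannot be told apart.

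Complex III (ubiquinol-cytochrome c reductase) passes electrons from ubiquinol to cytochrome c, complex IV (cytochrome c oxidase) passes them on to oxygen, and both pump protons across the inner mitochondrial membrane. Complex V (ATP synthase) lets the protons flow back through a rotating membrane ring and makes ATP. The catalytic core of complex IV and cytochrome b of complex III are encoded in mitochondrial DNA, whereas most other subunits and all factors that insert heme and copper, assemble cytochrome b or join the parts are encoded in the nucleus. The heart, which makes most of its ATP in mitochondria, holds large amounts of these complexes and uses striated-muscle isoforms of subunits 6a, 7a and 8 of complex IV.

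After TAC, controls had less mRNA of most nuclear subunits than after sham: 37 of the 50 tested genes fell and 0 rose at an adjusted p under 0.05 (limma over 13916 genes, Benjamini-Hochberg), where 10.6% of all tested genes fell and 11.0% rose. Their median log2 change was -0.63, against 0.01 over all tested genes. Subunits made up most of the genes that fell, with 33 of 37 tested and a median log2 change of -0.73, whereas 4 of 13 tested factors fell, with a median of -0.21. Most tested subunits had transcripts under 1.0 kb, as among tested factors did only Uqcc2 (500 bases), Cox14 (723) and Uqcc3 (821). Role and transcript length thus went largely together, here and in the comparisons below. With transcripts of 1.0 kb or more, the subunits Uqcrfs1, Cox7b, Atp5b, Atp5c1, Atp5f1 and Atp5g1 fell, and Uqcrc2 did not. Among factors of that length Cox17 and Cox7a2l fell, and the others did not. The annotated lengths of Atp5g1 and Cox17 are uncertain. The parts of role and length were not tested. The fall extended to each complex, with 6 of 7 tested subunits of complex III (median log2 change -0.63), 14 of 15 of complex IV (-0.85) and 13 of 15 of complex V (-0.68). In 39 of the 50 genes each control TAC library was below each control sham library, and in Cox19 and Atp5s each was above. By the same criterion 17.7% of all tested genes were lower and 17.7% were higher.

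**Figure D1:**
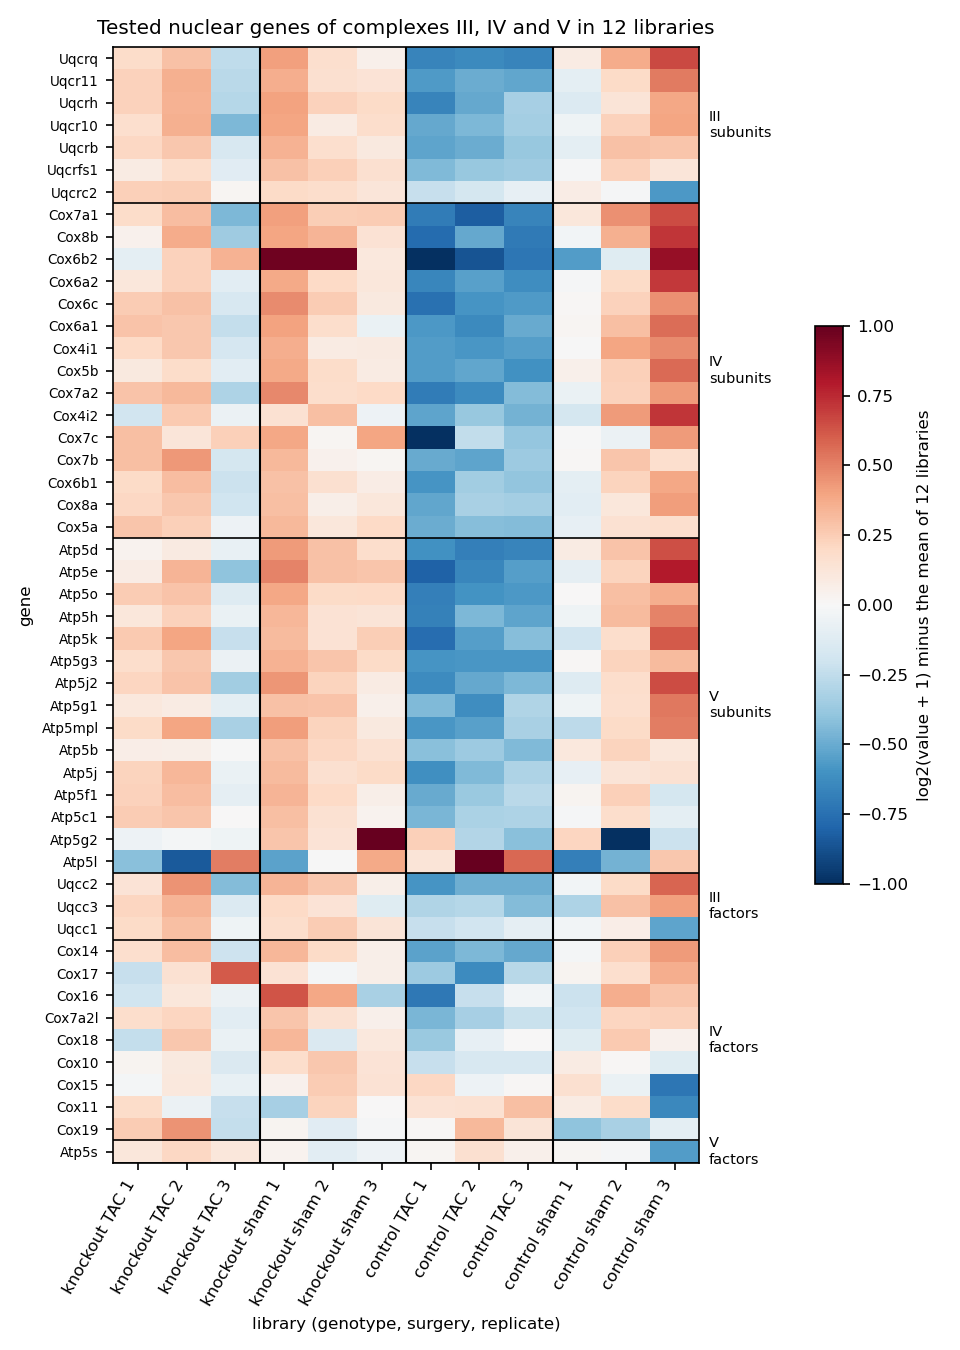
Heat map of the 50 tested genes of complexes III, IV and V (down the page, by complex and by subunit or factor) in the 12 libraries (across, knockout TAC, knockout sham, control TAC and control sham). Colour gives log2(value + 1) minus the gene's mean over the 12 libraries, with the scale ending at -1 and 1, which Cox6b2, Atp5l, Cox7c and Atp5g2 reach. The 3 control TAC libraries are the lowest for most subunits, with median deviations of -0.55, -0.45 and -0.40 over the 50 genes.

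The deviation of each library from the mean over all 12, as a median over the 50 genes on the log2 scale, was 0.19, 0.27 and -0.12 in knockout TAC replicates 1 to 3. In knockout sham replicates it was 0.33, 0.18 and 0.11, in control TAC replicates -0.55, -0.45 and -0.40, and in control sham replicates -0.03, 0.22 and 0.39. The control TAC libraries were thus the 3 lowest and did not overlap with any other group. Within groups, single libraries were lowest or highest for most of the genes. Knockout TAC replicate 3 was the lowest of its group for 41 of 50 genes (40.6% of all tested genes), control TAC replicate 1 for 37 (32.5%) and control sham replicate 1 for 40 (31.9%), and control sham replicate 3 was the highest of its group for 35 (37.6%). Over factors alone the medians in the control TAC libraries were less negative, at -0.30, -0.19 and -0.09.

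The genes that fell together are preceded by promoters of different letters. Shown are 4 of them as examples, of the isoform genes Cox6a1 (general) and Cox7a1 (muscle), the rotor gene Atp5g3 and the dimer gene Atp5k. They run from 250 bases before to 50 bases after the RefSeq start, on build GRCm38.p6, 5′ to 3′ on the strand of the gene; capitals mark the NRF1, GABP/ETS and ERR motifs named after them.
Cox6a1 (chr5:115348909-115349208, minus strand): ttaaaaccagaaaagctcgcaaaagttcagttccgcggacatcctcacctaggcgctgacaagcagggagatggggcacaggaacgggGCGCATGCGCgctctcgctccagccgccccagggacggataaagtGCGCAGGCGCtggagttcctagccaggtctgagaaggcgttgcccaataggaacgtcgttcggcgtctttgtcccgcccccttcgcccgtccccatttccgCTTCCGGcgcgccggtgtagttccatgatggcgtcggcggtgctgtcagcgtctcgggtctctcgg
Cox7a1 (chr7:30183921-30184220, plus strand): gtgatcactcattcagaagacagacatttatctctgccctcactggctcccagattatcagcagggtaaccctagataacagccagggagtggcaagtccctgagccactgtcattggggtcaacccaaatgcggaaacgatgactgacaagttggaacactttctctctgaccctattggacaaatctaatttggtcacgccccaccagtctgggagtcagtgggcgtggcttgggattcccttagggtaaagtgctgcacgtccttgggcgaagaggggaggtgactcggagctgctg
Atp5g3 (chr2:73911277-73911576, minus strand): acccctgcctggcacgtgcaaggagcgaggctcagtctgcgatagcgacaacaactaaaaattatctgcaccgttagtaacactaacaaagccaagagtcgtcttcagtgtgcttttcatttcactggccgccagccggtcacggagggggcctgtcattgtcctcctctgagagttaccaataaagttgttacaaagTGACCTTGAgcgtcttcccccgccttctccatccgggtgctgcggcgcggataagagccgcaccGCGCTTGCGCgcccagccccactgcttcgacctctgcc
Atp5k (chr5:108434350-108434649, minus strand): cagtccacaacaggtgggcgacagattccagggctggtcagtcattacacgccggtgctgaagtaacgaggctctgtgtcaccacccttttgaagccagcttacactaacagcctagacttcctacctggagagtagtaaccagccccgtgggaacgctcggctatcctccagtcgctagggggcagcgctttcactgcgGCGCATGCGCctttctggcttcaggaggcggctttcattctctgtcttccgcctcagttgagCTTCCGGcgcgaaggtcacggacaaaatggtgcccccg
Positions count from the start, with the first base of the motif given. The Cox6a1 promoter held the motif of nuclear respiratory factor 1 (NRF1), GCGCA and GCGC with any 1 base between them, at -162 and at -117, and the GABP/ETS motif CCGGAAG on the opposite strand at -16. Atp5k held the NRF1 motif at -50 and the GABP/ETS motif at 13, on the opposite strand. Atp5g3 held TGACCTTGA, an extended site of estrogen-related receptors (ERR), at -52 and the NRF1 motif on the opposite strand at 13. None of the 5 motifs was found in the 300 bases of Cox7a1. Nor was any found for Cox5a, Cox5b, Cox7b, Atp5b or Atp5d, which also fell. The examples are thus not typical: of the complexes' genes Cox6a1 held the most motif sites, and Atp5g3 alone held the ERR motif.

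Of the 56 genes, 41 had a promoter in the RefSeq table, and both strands were searched. The NRF1 motif was present in 9 of them (22.0%), against 5.19% of all 27025 genes with a promoter of the same length. The GABP/ETS motif was present in 15 (36.6%, against 9.93% of all genes with a promoter), the ERR motif in 1 (2.44% against 0.466%), the YY1 motif AAGATGGCG in 3 (7.32% against 1.64%) and the cyclic AMP response element TGACGTCA in 1 (2.44% against 2.03%). Among the 28 genes with a promoter that fell after TAC in controls, 7 held the NRF1 motif and 10 the GABP/ETS motif. Among the 10 tested ones that did not pass, 1 and 4 did. The presence of these letters is a description of the sequence and not of binding.

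Among complex III subunits, the Rieske iron-sulfur protein Uqcrfs1 (ENSMUSG00000038462.3, chr13:30540308-30545362, minus strand), which carries electrons from ubiquinol towards cytochrome c1, had normalised read counts of 10932, 11695 and 9578 in knockout TAC libraries and 12674, 12192 and 11557 in knockout sham libraries. Controls had 7633, 7944 and 8062 after TAC and 10248, 12109.6 and 11259 after sham. Its 3 control TAC libraries lay below all 9 others, and it fell in controls after TAC (log2 change -0.50 ± 0.12, limma adjusted p = 0.00807). Uqcrq (ENSMUSG00000044894.14, chr11:53427922-53430831, minus strand), a small subunit beside cytochrome b, showed the smallest p of the complex, with 9322, 10036 and 6884 in knockout TAC libraries and 10912, 9203 and 8483 in knockout sham libraries. Controls had 5189.8, 5282 and 5187 after TAC and 8660.0, 10615 and 12931 after sham. The control TAC values lay close together and below every other library, and the gene was 2.03-fold lower after TAC in controls (log2 change -1.02 ± 0.16, limma adjusted p = 0.000893). Uqcr11 (ENSMUSG00000020163.12, chr10:80402997-80406830, minus strand), another small subunit, had 4682, 5101 and 3302 in knockout TAC libraries and 5122, 4462 and 4383 in knockout sham libraries. Controls had 2695, 2835 and 2782 after TAC and 3723, 4551 and 5736 after sham. It fell by 0.73 ± 0.17 on the log2 scale (limma adjusted p = 0.00748). Its low control TAC group was likewise separate from the other 3 groups.

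The hinge protein gene Uqcrh (ENSMUSG00000063882.12, chr4:116066965-116075071, minus strand), whose product helps cytochrome c1 meet cytochrome c, had 8482, 9196 and 5909 in knockout TAC libraries and 9516, 8458 and 8244 in knockout sham libraries. Controls had 4556, 5063 and 5731 after TAC and 6553, 7906 and 9452 after sham. It fell in controls after TAC (log2 change -0.63 ± 0.17, limma adjusted p = 0.0163), a call that ended without control TAC replicate 1 or 2 (adjusted p up to 0.0726). For Uqcrb (ENSMUSG00000021520.4, chr13:66900617-66905378, minus strand), a small subunit near a ubiquinone site, the values were 1948, 2039 and 1515 in knockout TAC libraries and 2148, 1895 and 1813 in knockout sham libraries. Controls had 1171, 1196 and 1299.6 after TAC and 1578, 2076 and 2051 after sham. It fell by 0.63 ± 0.15 on the log2 scale (limma adjusted p = 0.00718). Both genes were lower in each control TAC library than in any other library. Of the positions of Uqcrb transcripts, 43.2% of 50-base stretches also occur in other genes, so that its reads could be shared with copies. Uqcr10, the last small subunit tested, also fell (log2 change -0.63 ± 0.18), in 8 of the 12 fits that left out a library.

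Core protein 2, Uqcrc2 (ENSMUSG00000030884.12, chr7:120635176-120659524, plus strand), part of the large matrix domain of complex III, was the one tested subunit of the complex that did not pass in controls. It had 12372, 12480.2 and 10656 in knockout TAC libraries and 11984, 11877 and 11457 in knockout sham libraries. Controls had 8953, 9309.6 and 9953 after TAC and 11054, 10443 and 7075 after sham. The log2 change after TAC in controls was 0.01 ± 0.15 (limma adjusted p = 0.976). The low value was in control sham replicate 3, and without that library the log2 change was -0.19. Core protein 1, Uqcrc1, was listed at 0 in 10 libraries and at no more than 1.81 in any, and was not tested.

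Complex IV subunits moved in a similar range. Subunit 4, which carries the site where ATP slows the enzyme, has a general gene, Cox4i1 (ENSMUSG00000031818.12, chr8:120668222-120674207, plus strand), with 28086, 29565 and 21828 in knockout TAC libraries and 31527, 26018 and 26067 in knockout sham libraries. Controls had 16643, 16429 and 16714 after TAC and 24489, 32162 and 33994 after sham. After TAC it fell in controls (log2 change -0.85 ± 0.15, limma adjusted p = 0.00149), and its 3 control TAC libraries, all close to each other, lay below the other 9. Its second gene Cox4i2 (ENSMUSG00000009876.13, chr2:152754173-152765037, plus strand), known from lung and from oxygen-sensing cells, had 125, 171 and 136 in knockout TAC libraries and 159, 175 and 138 in knockout sham libraries. Controls had 98.4, 109 and 103 after TAC and 126, 192 and 235 after sham. It fell too (log2 change -0.78 ± 0.21, limma adjusted p = 0.0148), but not without control sham replicate 3 (adjusted p = 0.0588).

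Cox5a (ENSMUSG00000000088.7, chr9:57521274-57532426, plus strand), which sits on the matrix side of the enzyme, had 7779, 7581 and 6194 in knockout TAC libraries and 8039, 6941 and 7359 in knockout sham libraries. Controls had 4546, 4781 and 4741 after TAC and 6040.1, 7142 and 7219 after sham. Control TAC libraries were the 3 lowest. Cox5b (ENSMUSG00000061518.11, chr1:36691449-36693681, plus strand), its zinc-binding neighbour, had 3641, 3864 and 3162 in knockout TAC libraries and 4417, 3858 and 3585 in knockout sham libraries. Controls had 2301, 2364 and 2231 after TAC and 3512, 4009 and 5036 after sham. Both were lower in each control TAC library than in any other library, and both fell (log2 change -0.53 ± 0.13, limma adjusted p = 0.00867 for Cox5a; log2 change -0.85 ± 0.14, limma adjusted p = 0.00108 for Cox5b). Cox6c (ENSMUSG00000014313.15, chr15:35925886-35938246, minus strand), a subunit that spans the membrane, had 6879.9, 7073 and 5149.9 in knockout TAC libraries and 7992, 6869 and 6178 in knockout sham libraries. Controls had 3442, 3823 and 3891 after TAC and 5813, 6752 and 7938 after sham. It fell as well (log2 change -0.87 ± 0.15, limma adjusted p = 0.00151). Cox7b (ENSMUSG00000031231.4, chrX:106015700-106022450, plus strand), on the X chromosome, had 13306, 14594 and 9528 in knockout TAC libraries and 13479, 11081 and 10911 in knockout sham libraries. Controls had 7582, 7484 and 8367 after TAC and 10866, 13065 and 12112 after sham. It fell by 0.62 ± 0.15 on the log2 scale (limma adjusted p = 0.0105). In these genes the control TAC libraries formed the low group without overlap.

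Subunit 6b clamps the enzyme's monomers together on the cytochrome c side. Its general gene Cox6b1 (ENSMUSG00000036751.7, chr7:30616861-30626151, minus strand) had 10645, 11561 and 8027 in knockout TAC libraries and 11405, 10435 and 9811 in knockout sham libraries. Controls had 6199.8, 7346 and 7102 after TAC and 8719.7, 10875 and 12206 after sham. It fell after TAC in controls (log2 change -0.61 ± 0.16, limma adjusted p = 0.0118), though not without control TAC replicate 1 (adjusted p = 0.0559). Cox6b2 (ENSMUSG00000051811.14, chr7:4751792-4753094, minus strand), the testis isoform, was near the filter, with 7.72, 9.98 and 10.9 in knockout TAC libraries and 17.3, 17.3 and 9.05 in knockout sham libraries. Controls had 3.24, 4.12 and 4.66 after TAC and 5.33, 7.60 and 16.1 after sham. Its control TAC libraries were below its control sham libraries, and the change did not pass (log2 change -0.97 ± 0.48, limma adjusted p = 0.16). Cox7c, with 29.2 to 90.7 in any library, passed by a narrow margin (log2 change -0.72 ± 0.25, limma adjusted p = 0.0482) and did so in 1 of the 12 fits that left out a library; 23.0% of its 50-base stretches also occur in other genes.

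Subunits 6a, 7a and 8 each have a heart and muscle gene beside a general one. For subunit 6a, the muscle gene Cox6a2 (ENSMUSG00000030785.8, chr7:128205435-128206387, minus strand) had 23146, 25098 and 19957 in knockout TAC libraries and 27842, 24549 and 23165 in knockout sham libraries. Controls had 13646, 14711 and 13934 after TAC and 21200.4, 24528 and 35061 after sham. The control TAC libraries were its 3 lowest. The general gene Cox6a1 (ENSMUSG00000041697.8, chr5:115345642-115348981, minus strand) had 1199, 1189 and 837 in knockout TAC libraries and 1305, 1112 and 943 in knockout sham libraries. Controls had 661, 633 and 696 after TAC and 999, 1213 and 1449 after sham. Both fell to a like extent in controls after TAC, Cox6a2 by 0.90 ± 0.16 (limma adjusted p = 0.00162) and Cox6a1 by 0.86 ± 0.17 (limma adjusted p = 0.00272) on the log2 scale, with no overlap of control TAC and control sham libraries. For subunit 7a, Cox7a1 (ENSMUSG00000074218.3, chr7:30184144-30186078, plus strand), the muscle gene, had 9487, 10314 and 6099.9 in knockout TAC libraries and 11077, 9904 and 9962 in knockout sham libraries. Controls had 5131, 4699 and 5276 after TAC and 9007, 11422 and 13115 after sham. Here too the control TAC libraries were lowest. Its general partner Cox7a2 (ENSMUSG00000032330.7, chr9:79755361-79759878, minus strand) had 5819, 5969 and 3858 in knockout TAC libraries and 6665, 5391 and 5481 in knockout sham libraries. Controls had 2943, 3081 and 3533 after TAC and 4568, 5613 and 6423 after sham. Cox7a1 was 2.2-fold lower after TAC in controls (log2 change -1.14 ± 0.18, limma adjusted p = 0.00076), the largest change among the genes of the 3 complexes that passed, and Cox7a2 was 1.73-fold lower (log2 change -0.79 ± 0.17, limma adjusted p = 0.00534). For subunit 8, Cox8b (ENSMUSG00000025488.9, chr7:140898945-140900446, minus strand), the muscle gene, had 6028, 7586 and 4584 in knockout TAC libraries and 7695, 7418 and 6473 in knockout sham libraries. Controls had 3439, 4116 and 3594 after TAC and 5732, 7488 and 9638 after sham. All control TAC values lay below the others. The general gene Cox8a (ENSMUSG00000035885.5, chr19:7215153-7217616, minus strand) had 1077, 1124 and 809 in knockout TAC libraries and 1145, 968 and 1006 in knockout sham libraries. Controls had 649, 742 and 737 after TAC and 866, 1009 and 1245 after sham. Cox8b fell by 1.01 ± 0.19 on the log2 scale (limma adjusted p = 0.00212) and Cox8a by 0.54 ± 0.16 (limma adjusted p = 0.0219); Cox8a lost its call when control TAC replicate 1 or 2 or the third control sham replicate was left out (adjusted p up to 0.0856).

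In complex V, the catalytic head is built from alternating alpha and beta subunits. Atp5b (ENSMUSG00000025393.12, chr10:128083273-128090391, plus strand), the beta subunit that holds the catalytic sites, had the highest values of all the genes, with 77864, 77452 and 74294 in knockout TAC libraries and 91511, 85830.2 and 82755 in knockout sham libraries. Controls had 55751, 58011 and 54917 after TAC and 80361, 87100.2 and 80723 after sham. The control TAC values were below all others, and Atp5b fell (log2 change -0.56 ± 0.11, limma adjusted p = 0.00279). The alpha subunit gene Atp5a1 was listed at 0 to 1.86 in the 12 libraries and was not tested.

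The central stalk turns inside the head. Atp5c1 (ENSMUSG00000025781.14, chr2:10056016-10080510, minus strand), its gamma subunit, had 16198, 16474 and 13637 in knockout TAC libraries and 16768, 15115 and 13905 in knockout sham libraries. Controls had 9883, 10902 and 10982 after TAC and 13489, 15354 and 12681 after sham. It fell by 0.38 ± 0.13 on the log2 scale (limma adjusted p = 0.042), and did so in 4 of the 12 fits that left out a library (adjusted p up to 0.141). The delta subunit gene Atp5d (ENSMUSG00000003072.15, chr10:80138632-80145818, plus strand) had the smallest p of all the genes, with 9117, 9427 and 8428 in knockout TAC libraries and 11895, 10875 and 10018 in knockout sham libraries. Controls had 5825, 5539.6 and 5609.7 after TAC and 9379, 10812 and 13900.5 after sham. It was 1.98-fold lower after TAC in controls (log2 change -0.99 ± 0.14, limma adjusted p = 0.000362), and its control TAC libraries were separate from the other 9. Atp5e, of the epsilon subunit, fell by a similar amount (log2 change -0.98 ± 0.20, limma adjusted p = 0.00436).

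The peripheral stalk holds the head still. Atp5o (ENSMUSG00000022956.11, chr16:91925214-91931687, minus strand), the oligomycin-sensitivity protein at its top, had 7589, 7779.6 and 5819.6 in knockout TAC libraries and 8345, 7272 and 7292 in knockout sham libraries. Controls had 3968, 4205 and 4275 after TAC and 6372, 7848 and 8208 after sham. The lowest group was control TAC, without overlap. Atp5h (ENSMUSG00000034566.10, chr11:115415689-115419962, minus strand), subunit d, had 3068, 3339.7 and 2718 in knockout TAC libraries and 3571, 3146 and 3116 in knockout sham libraries. Controls had 1778, 2087 and 1971 after TAC and 2767, 3534 and 4003 after sham. Both fell with no overlap between control TAC and control sham libraries, Atp5o by 0.84 ± 0.14 (limma adjusted p = 0.001) and Atp5h by 0.81 ± 0.14 (limma adjusted p = 0.00162) on the log2 scale. Other identifiers hold 35.5% of the 50-base stretches of Atp5o, foremost the second Atp5o identifier, which was listed at 0 in every library. Other genes hold 38.8% of the stretches of Atp5h. Atp5j (ENSMUSG00000022890.13, chr16:84827866-84835625, minus strand), coupling factor 6, had 7279.7, 7826 and 5948 in knockout TAC libraries and 7779, 6970.0 and 7117 in knockout sham libraries. Controls had 4082, 4595 and 5023 after TAC and 5884, 6832 and 6926 after sham. It fell (log2 change -0.52 ± 0.13, limma adjusted p = 0.0127) except without control TAC replicate 1 (adjusted p = 0.064). Atp5f1 (ENSMUSG00000000563.17, chr3:105942698-105960099, minus strand), subunit b, had 9128, 9629.7 and 7321 in knockout TAC libraries and 9843, 8958 and 8117 in knockout sham libraries. Controls had 5475, 6029.9 and 6448 after TAC and 7949, 9169 and 6899.8 after sham. Its fall (log2 change -0.41 ± 0.14, limma adjusted p = 0.0488) passed in 2 of the 12 fits that left out a library.

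The rotor ring in the membrane is made of subunit c, for which 3 genes code identical mature proteins. Atp5g3 (ENSMUSG00000018770.9, chr2:73908447-73911326, minus strand) had 21345, 22825 and 18130.5 in knockout TAC libraries and 24022, 22928 and 21567 in knockout sham libraries. Controls had 12575, 12637 and 12603 after TAC and 19097, 22069 and 23495 after sham. Its control TAC values were nearly equal. Atp5g1 (ENSMUSG00000006057.15, chr11:96068852-96075670, minus strand) had 967, 954 and 839 in knockout TAC libraries and 1104, 1093 and 930.0 in knockout sham libraries. Controls had 661, 583 and 728 after TAC and 875, 1011 and 1296 after sham. Both lay lower in each control TAC library than in the other 9 libraries and fell, Atp5g3 by 0.77 ± 0.13 (limma adjusted p = 0.000935) and Atp5g1 by 0.68 ± 0.15 (limma adjusted p = 0.00548) on the log2 scale. Atp5g2 (ENSMUSG00000062683.11, chr15:102662864-102672352, minus strand) was near the filter, with 8.69, 8.87 and 8.72 in knockout TAC libraries and 11.2, 10.04 and 22.6 in knockout sham libraries. Controls had 10.8, 7.21 and 6.53 after TAC and 10.7, 3.80 and 7.63 after sham. Its groups overlapped and it did not pass (log2 change 0.20 ± 0.47, limma adjusted p = 0.8); 87.4% of its 50-base stretches occur in other genes. Of the subunits where complexes pair into dimers, Atp5k (ENSMUSG00000050856.16, chr5:108433244-108434448, minus strand), subunit e, had 6183, 6763 and 4394 in knockout TAC libraries and 6413, 5688 and 6102 in knockout sham libraries. Controls had 3041, 3521 and 3840.2 after TAC and 4498, 5810.4 and 7866 after sham. It fell without overlap of control TAC and control sham libraries (log2 change -0.77 ± 0.19, limma adjusted p = 0.00962). Atp5l, subunit g, was listed at 34.4 to 135, with 68.5% of its 50-base stretches in other genes, and did not pass (log2 change 0.90 ± 0.36, limma adjusted p = 0.0884). The small membrane subunits Atp5j2 and Atp5mpl fell (log2 change -0.77 ± 0.19 and log2 change -0.63 ± 0.19), Atp5mpl in 8 of the 12 fits that left out a library (adjusted p up to 0.123).

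Factors moved less uniformly. Uqcc2 (ENSMUSG00000024208.16, chr17:27122663-27133916, minus strand), which with its partner Uqcc1 assembles cytochrome b of complex III, had 1056, 1318 and 712 in knockout TAC libraries and 1219.7, 1159.5 and 1005 in knockout sham libraries. Controls had 639, 687 and 686 after TAC and 946, 1102 and 1439.7 after sham. Control TAC libraries were lowest. Uqcc1 (ENSMUSG00000005882.18, chr2:155846894-155930310, minus strand) had 2653, 2867 and 2259.8 in knockout TAC libraries and 2632, 2782 and 2543 in knockout sham libraries. Controls had 1982, 2039.5 and 2182 after TAC and 2278, 2431 and 1612 after sham. The 2 partners differed in that Uqcc2 fell after TAC in controls, with no overlap (log2 change -0.77 ± 0.19, limma adjusted p = 0.0106), and the groups of Uqcc1 overlapped (log2 change -0.01 ± 0.15, limma adjusted p = 0.982); the difference between the genes was not tested. Cox14 (ENSMUSG00000023020.3, chr15:99725618-99728136, plus strand), which acts at the start of the assembly of mitochondrially encoded subunit 1, had 1814, 2003 and 1404 in knockout TAC libraries and 2038, 1849 and 1689.8 in knockout sham libraries. Controls had 1116, 1187 and 1134 after TAC and 1598, 1911 and 2175 after sham. It had the smallest p among factors of complex IV and fell (log2 change -0.71 ± 0.15, limma adjusted p = 0.00408), with the 3 control TAC libraries lowest of all 12. Cox18 (ENSMUSG00000035505.14, chr5:90214724-90224001, minus strand), which inserts subunit 2 into the membrane, had 67.6, 96.5 and 76.3 in knockout TAC libraries and 101, 72.1 and 85.9 in knockout sham libraries. Controls had 61.6, 75.2 and 80.2 after TAC and 73.5, 95.9 and 82.2 after sham. Its groups overlapped, and it had the largest p among factors of complex IV (log2 change -0.21 ± 0.21, limma adjusted p = 0.505). Atp5s (ENSMUSG00000054894.6, chr12:69724950-69744660, plus strand), known as coupling factor B, had 266, 284 and 266 in knockout TAC libraries and 252, 229 and 238 in knockout sham libraries. Controls had 249.8, 275 and 255 after TAC and 249, 244 and 167 after sham. Its control TAC libraries were each above its control sham libraries, and the change did not pass (log2 change 0.26 ± 0.15, limma adjusted p = 0.242).

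Of the other factors, the copper chaperone Cox17 (log2 change -0.61 ± 0.20, limma adjusted p = 0.0355) and the supercomplex factor Cox7a2l (log2 change -0.42 ± 0.14, limma adjusted p = 0.0453) fell. Cox17 held in 8 and Cox7a2l in 2 of the 12 fits that left out a library. The heme synthesis genes Cox10 and Cox15 had log2 changes of -0.17 and 0.27, the copper genes Cox11 and Cox19 0.33 and 0.43, Cox16 -0.47 and Uqcc3 -0.47, and none of these 6 passed. Tom1l1 covers 48.3% of the exon bases of Cox11 on the opposite strand, and Gm20498 covers 56.8% of those of Cox16 on the same strand.

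**Figure D2:**
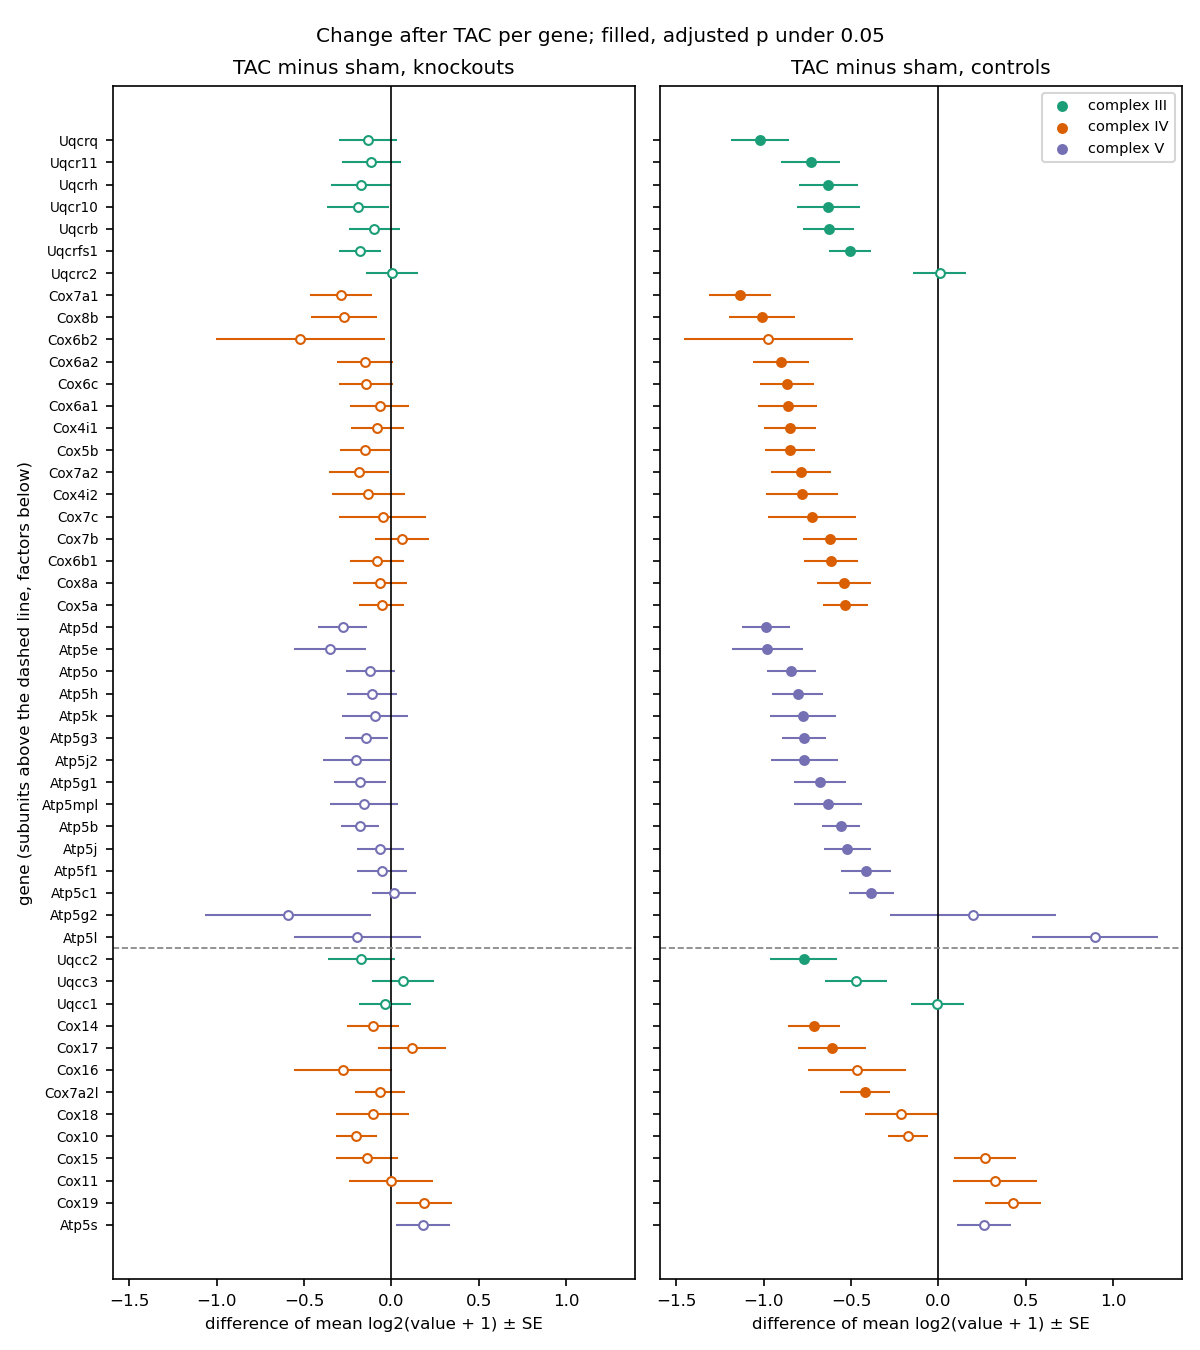
Log2 change after TAC against sham for each of the 50 tested genes in knockouts (left) and in controls (right), with bars of 1 SE and filled points where the limma adjusted p was under 0.05. On the right 37 genes lie below 0 and are filled, on the left none is filled, and the points lie between -0.59 (Atp5g2) and 0.19 (Cox19).

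Of these 37 genes, 25 passed in all 12 fits that left out 1 library in turn. The number that fell was 26 without control TAC replicate 1, 29 without control TAC replicate 2, 30 without control sham replicate 2 or 3, and between 33 and 37 without any other library. Over all 13916 tested genes, 3006 passed in either direction with all libraries, against 1934 without control TAC replicate 1, 1549 without control TAC replicate 2, 2164 without control sham replicate 2 and 2402 without control sham replicate 3. With the fit restricted to the control libraries, 27 of the 50 and 1433 of all tested genes passed.

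In knockouts, 0 of the 50 genes passed between TAC and sham by limma, edgeR or DESeq2, where 0.00719% of all tested genes passed by limma. None of the 50 had an unadjusted p under 0.05, as 6.68% of all tested genes did. The median log2 change was -0.13, and 43 of the 50 changes were below 0. Cox7a1 changed by log2 change -0.29 ± 0.18 (limma adjusted p = 0.792) and Atp5d by log2 change -0.28 ± 0.14 (limma adjusted p = 0.735), with overlap of the groups in Cox7a1 and none in Atp5d. Without knockout TAC replicate 3 the median was 0.02, and 22 of the 50 changes were below 0.

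Between knockouts and controls after sham, 0 of the 50 genes passed by limma, edgeR or DESeq2, and 2 did at an unadjusted p under 0.05, where 4.34% of all tested genes did. These 2 were Uqcrc2 (log2 difference 0.33 ± 0.15, limma adjusted p = 0.934) and Uqcc1 (log2 difference 0.35 ± 0.15, limma adjusted p = 0.934), both higher in each knockout sham library than in each control sham library. The median log2 change was 0.04, and 0.0% of all tested genes passed. The sign of that median was not stable, with -0.09 without control sham replicate 1, -0.03 without knockout sham replicate 1 and -0.03 when values were scaled by total reads.

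After TAC, knockouts had more mRNA of these genes than controls. Of the 50 genes, 26 were higher in knockouts and 0 lower at an adjusted p under 0.05, where 4.1% of all tested genes were higher, and the median log2 difference was 0.58, against 0.01 over all tested genes. Of tested subunits 25 of 37 were higher, 5 of 7 in complex III, 11 of 15 in complex IV and 9 of 15 in complex V, and of factors 1 of 13, which was Cox14 (log2 difference 0.59 ± 0.15, limma adjusted p = 0.0247). This comparison shares the control TAC libraries with that of TAC and sham in controls, so that the 2 are not independent. In 41 of the 50 genes each knockout TAC library was above each control TAC library, as were 15.6% of all tested genes.

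The rotor gene Atp5g3 had the smallest p (log2 difference 0.71 ± 0.13, limma adjusted p = 0.00485), with 18130.5 as its lowest knockout TAC value and 12637 as its highest control TAC value. Atp5o followed (log2 difference 0.76 ± 0.14, limma adjusted p = 0.00652), then Cox6c (log2 difference 0.76 ± 0.15, limma adjusted p = 0.00911). Among the others that passed were Uqcrq (log2 difference 0.73 ± 0.16) and Uqcrfs1 (log2 difference 0.44 ± 0.12) of complex III, Cox4i1 (log2 difference 0.66 ± 0.15), Cox5a (log2 difference 0.61 ± 0.13), Cox5b (log2 difference 0.62 ± 0.14), Cox6a2 (log2 difference 0.68 ± 0.16) and Cox7a1 (log2 difference 0.74 ± 0.18) of complex IV, and Atp5b (log2 difference 0.44 ± 0.11), Atp5c1 (log2 difference 0.54 ± 0.13) and Atp5d (log2 difference 0.67 ± 0.14) of complex V. The general gene Cox8a (log2 difference 0.49 ± 0.16, limma adjusted p = 0.0607) and Atp5g1 (log2 difference 0.49 ± 0.15, limma adjusted p = 0.0533) were close to the threshold and did not pass, although their knockout TAC and control TAC libraries did not overlap. Uqcrc2 (log2 difference 0.33 ± 0.15, limma adjusted p = 0.184) and Uqcc1 (log2 difference 0.32 ± 0.15, limma adjusted p = 0.194) did not pass either, and Atp5l had a negative difference that did not pass (log2 difference -0.85 ± 0.36, limma adjusted p = 0.156).

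The number of genes that passed depended on single libraries, as did that over all 13916 tested genes, which was 1145 with all libraries. It was 2 of the 50 (214 of all tested genes) without knockout TAC replicate 1, 2 (202) without knockout TAC replicate 2, 4 (348) without control TAC replicate 1 and 5 (275) without control TAC replicate 2. It was 36 (35 higher and 1 lower; 1945 of all tested genes) without knockout TAC replicate 3 and 38 (2143) without control sham replicate 3. Atp5g3 and Atp5o were the 2 genes that passed in all 12 such fits. Scaling by total reads left 17 of the 50, with 1250 of all tested genes.

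The difference between the effect of TAC in knockouts and in controls passed for 0 of the 50 genes by limma and by edgeR, and for 31 at an unadjusted p under 0.05, where 16.5% of all tested genes did. By limma 0.309% of all tested genes passed. DESeq2 called 13 of the 50, with no adjusted p for 9, and 480 of all 13916 tested genes, against 43 by limma. The median difference of log2 changes was 0.53, and the smallest adjusted p was 0.0963, for Uqcrq (log2 difference 0.89 ± 0.23). Without control sham replicate 1, 14 of the 50 and 755 of all tested genes passed, and without knockout TAC replicate 3, 8 of the 50 and 283 of all tested genes did. With all 12 libraries, the limma and edgeR fits to the 13916 tested genes thus did not show the effect of TAC to differ between genotypes for any gene of the 50. DESeq2 did for 13, and limma with no filter, which tested 53 of the genes, did for 2.

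Many of these genes have short transcripts, and length moved with the change. Among all genes tested with a transcript under 1.0 kb, 25.1% fell after TAC in controls and the median log2 change was -0.38 (1147 genes), and 13.0% were higher in knockouts than in controls after TAC. Of the 33 genes of the complexes with a transcript under 1.0 kb, 29 fell after TAC in controls (median log2 change -0.77), and of the 17 longer ones 8 fell (median -0.38). Across the 50 genes, which share libraries, Spearman's rho between length and log2 change was 0.54 after TAC in controls, against 0.40 over 13906 tested genes, and -0.53 for knockouts against controls after TAC, against -0.47. With GC content, rho was -0.44 after TAC in controls, against -0.45 over the 13906 genes. It was 0.27 for knockouts against controls after TAC, against 0.18. When a trend on transcript length and GC content was removed from each library, 26 of the 50 genes fell after TAC in controls, with a median log2 change of -0.41, and 5.61% of all tested genes fell. The 11 genes that no longer passed were Atp5c1, Atp5f1, Atp5j, Cox4i2, Cox6a1, Cox7a2l, Cox7c, Cox8a, Uqcc2, Uqcr10 and Uqcr11. In knockouts against controls after TAC, 17 passed with the trend removed (median log2 difference 0.38), where 2.38% of all tested genes were higher, and 16 of these had passed before. For the difference of the TAC effects the median then was 0.29, 0 genes passed and 19 had an unadjusted p under 0.05. The part of transcript length and GC content in the changes was not tested beyond this.

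**Figure D3:**
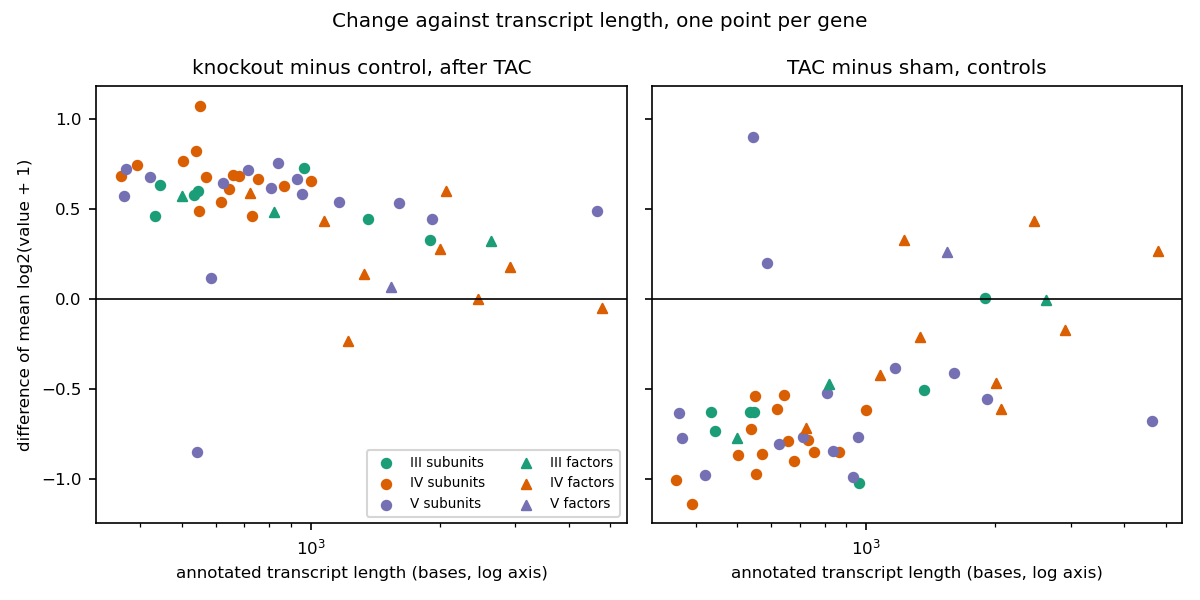
Difference of mean log2(value + 1) against annotated transcript length in bases on a log axis, for knockouts against controls after TAC (left) and TAC against sham in controls (right). Each point is 1 of the 50 tested genes, coloured by complex, with circles for subunits and triangles for factors. The genes lie mostly at the short end, 33 of 50 under 1.0 kb.

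The balance between muscle and general isoform genes was followed as the log2 ratio of their values within each library. For Cox7a1 over Cox7a2 it was 0.71, 0.79 and 0.66 in knockouts after TAC, 0.73, 0.88 and 0.86 in knockouts after sham, 0.80, 0.61 and 0.58 in controls after TAC and 0.98, 1.02 and 1.03 in controls after sham. It was lower after TAC over both genotypes (log2 difference -0.23, exact permutation test of surgery within genotype, two-sided, p = 0.01, adjusted over 6 pairs 0.045). The groups did not overlap in controls, where the difference was -0.35, and overlapped in knockouts, where it was -0.11; with 3 libraries against 3, p cannot go below 0.1, and the exact p was 0.1 in controls and 0.2 in knockouts. For Cox8b over Cox8a the log2 ratio was 2.48, 2.75 and 2.50 in knockouts after TAC, 2.75, 2.94 and 2.68 in knockouts after sham, 2.40, 2.47 and 2.29 in controls after TAC and 2.72, 2.89 and 2.95 in controls after sham. It too was lower after TAC (log2 difference -0.34, exact permutation p = 0.015, adjusted 0.045), with -0.47 and no overlap in controls and -0.21 with overlap in knockouts. Neither result passed with the length and GC trend removed, where the log2 differences were -0.13 (adjusted exact p = 0.14) and -0.38 (adjusted exact p = 0.09), or in 7 of the 12 analyses that left out a library.

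The other 4 ratios did not pass. Cox6a2 over Cox6a1, with a mean ratio of 21.4 in knockouts after TAC, 22.6 in knockouts after sham, 21.3 in controls after TAC and 21.9 in controls after sham, changed by -0.06 on the log2 scale (exact p = 0.39, adjusted 0.735). Cox4i2 over Cox4i1 changed by 0.01 (exact p = 0.94), Atp5g1 over Atp5g3 by 0.03 (exact p = 0.695, adjusted 0.834) and Atp5g2 over Atp5g3 by 0.26 (exact p = 0.49, adjusted 0.735). Between knockouts and controls within surgery no ratio passed, and the smallest exact p was 0.075 for Atp5g1 over Atp5g3 (log2 difference -0.16, adjusted 0.45).

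**Figure D4:**
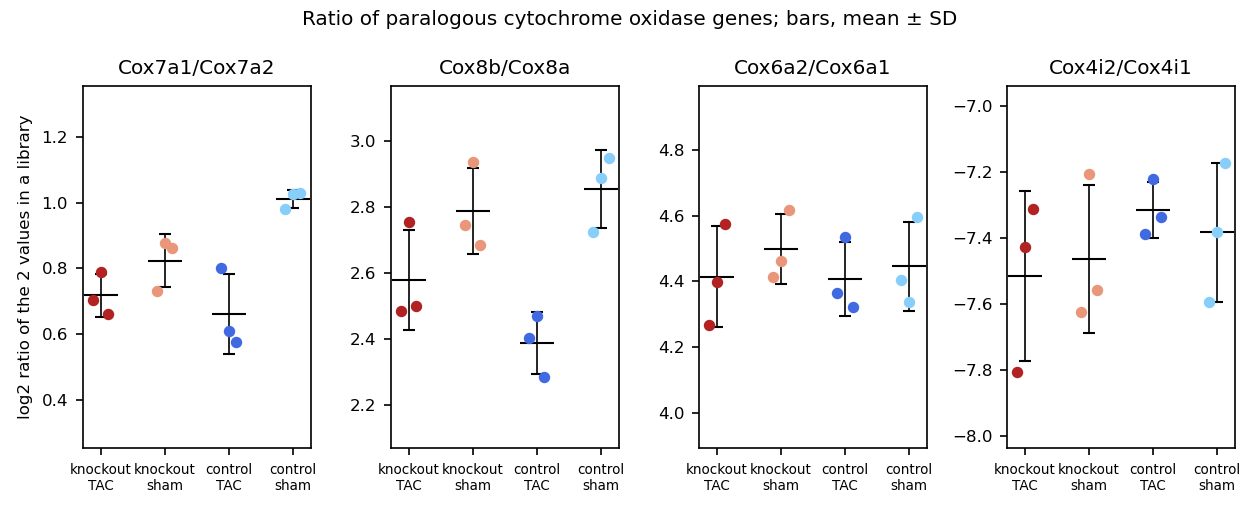
Log2 ratio of the values of paired subunit genes in each library, for 4 pairs, with knockout TAC, knockout sham, control TAC and control sham from left to right; points are libraries and bars the mean ± SD of 3. For Cox7a1 over Cox7a2 and Cox8b over Cox8a the control TAC points lie below the control sham points, by 0.35 and 0.47 between means.

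Per kilobase of transcript, the genes spread over more than 3 orders of magnitude. Atp5b was the highest with 29346 ± 836 normalised reads per kb in controls after TAC and 43177 ± 1979 in controls after sham (SD, n = 3 each). On the same scale Cox4i1 had 21981 ± 196 in controls after TAC and 40019.9 ± 6679 in controls after sham, and Cox6a2 had 20731 ± 811 in controls after TAC and 39603 ± 10641 in controls after sham. The rotor gene followed, as Atp5g3 had 17654 ± 43.3 in controls after TAC and 30187 ± 3142 in controls after sham. Among the other muscle isoforms Cox7a1 had 12813 ± 764 in controls after TAC and 28452 ± 5253 in controls after sham, and Cox8b had 10323 ± 985 in controls after TAC and 21165 ± 5435 in controls after sham. The order of neighbours such as Cox4i1 and Cox6a2 in controls after sham was not separable, their SDs being larger than the gap between them. The lowest tested genes on this scale were Cox16, Cox6b2 and Atp5g2, at 29.2, 17.5 and 12.6 normalised reads per kb in controls after sham. Other genes hold 74.5% of the 50-base stretches of Cox16 and 87.4% of those of Atp5g2. The levels of these 2 genes are therefore uncertain, as are those of Atp5l and Cox7c, which also share stretches. Muscle genes exceeded their general partners for subunits 6a, 7a and 8, as Cox6a1, Cox7a2 and Cox8a had 2138, 8398 and 1891 normalised reads per kb in controls after sham, and Cox4i1 exceeded Cox4i2, which had 252. The level per kb of Atp5g1 is uncertain, because its annotated transcripts range from 596 to 4715 bases, as are those of Cox17 (444 to 3690) and Uqcrq (405 to 1521).

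**Figure D5:**
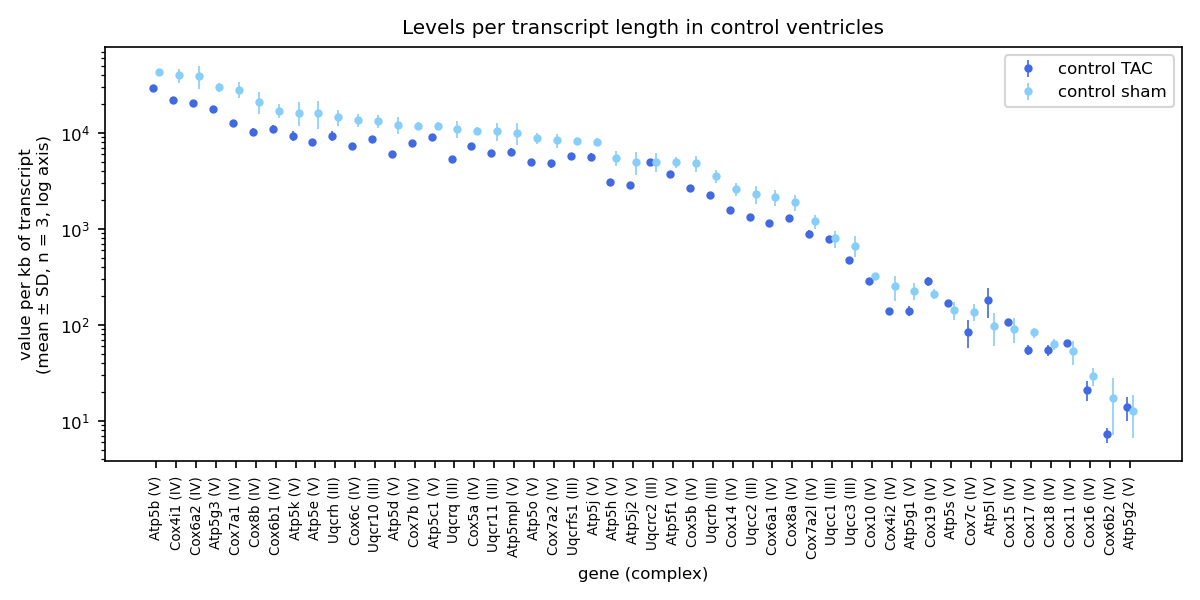
Normalised reads per kb of transcript, on a log axis, for the tested genes in controls after TAC and controls after sham, as means ± SD of 3 libraries. Atp5b, Cox4i1 and Cox6a2 head the order, and Cox16, Cox6b2 and Atp5g2 end it.

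Other genes of the same complexes, which the symbol rule leaves out, were read from the same fit. Of 4 other genes of complex III, Cyc1 (cytochrome c1) fell after TAC in controls (log2 change -0.69 ± 0.12, limma adjusted p = 0.00146) and was higher in knockouts than in controls after TAC (0.63 ± 0.12, limma adjusted p = 0.00759). Of 19 other genes of complex IV, 6 fell and 1 rose: Ndufa4, a subunit once assigned to complex I (-0.71 ± 0.17, limma adjusted p = 0.0089), the assembly genes Surf1, Coa3, Cmc2, Smim20 and Tmem177, and, higher, the assembly gene Coa5 (0.51 ± 0.18, limma adjusted p = 0.0496). Of 7 other genes of complex V, the ATP synthase inhibitor Atpif1 (-0.55 ± 0.18) and the assembly gene Fmc1 (-0.71 ± 0.19) fell. In complex II, which is wholly encoded in the nucleus, 3 of 8 genes fell: Sdhb (-0.58 ± 0.13), Sdhc (-0.55 ± 0.12) and Sdhaf1 (-0.65 ± 0.20). Like Cyc1, Bcs1l of complex III and Ndufa4, Coa3, Cmc2 and Higd1a of complex IV were higher in knockouts than in controls after TAC. So were Sdhb, Sdhc and Sdhaf1 of complex II, and none of the listed complex V genes passed in that comparison.

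Of the 6 mitochondrially encoded subunit genes of the 3 complexes, 4 were listed at 0 in all 12 libraries and were not tested. Cytochrome b (mt-Cytb) changed by -0.06 ± 0.14 and subunit 1 of complex IV (mt-Co1) by 0.15 ± 0.19 after TAC in controls, and neither passed. After TAC, mt-Cytb was higher in knockouts than in controls (0.46 ± 0.14, limma adjusted p = 0.0492) and mt-Co1 did not pass (0.32 ± 0.19). Of 13 regulators of mitochondrial genes, 3 rose after TAC in controls: the coactivators Ppargc1a (1.08 ± 0.26, limma adjusted p = 0.012) and Ppargc1b (1.12 ± 0.18, limma adjusted p = 0.000893), and Gabpa (0.65 ± 0.17, limma adjusted p = 0.0144), which encodes the DNA-binding part of GABP and overlaps Atp5j on the opposite strand (the strand setting of the counting is unknown). The nuclear receptor Esrra (-0.43 ± 0.11) and the mitochondrial RNA polymerase Polrmt (-0.43 ± 0.13) fell. In knockouts against controls after TAC, Ppargc1a (-1.16 ± 0.26, limma adjusted p = 0.0194) and Ppargc1b (-1.32 ± 0.18, limma adjusted p = 0.00101) were lower.

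Cell type markers also moved with these comparisons. Over all tested genes, 10.6% fell and 11.0% rose after TAC in controls. After TAC in controls, 4 of 12 cardiomyocyte markers fell and 2 rose, and their summed values were 1202829 to 1293642 in knockouts after TAC, 1299445 to 1380153 in knockouts after sham, 990165 to 1085457 in controls after TAC and 1155204 to 1209336 in controls after sham. Of 7 tested mesothelial markers 5 fell, with sums of 205 to 421, 204 to 408, 66.2 to 196 and 220 to 552 in the same 4 groups, and of 5 tested erythroid markers 3 fell, with sums of 3146 to 10438, 4494 to 5869, 2407 to 4123 and 6159 to 6729. Of 8 fibroblast markers 1 fell and 2 rose, with sums of 22805 to 29214, 29921 to 31286, 30377 to 31643 and 29035 to 36345. Most of these sums came from Gsn, the marker that fell, with means of 14817, 19093, 15521 and 20804. Apart from Gsn, only Tcf21 had a negative log2 change after TAC in controls (-0.67), which did not pass. Col1a2 and Col3a1 were the markers that rose. None of 8 endothelial and 8 macrophage markers passed, and none of the markers was at 0 in all libraries. In knockouts against controls after TAC, 6 of 12 cardiomyocyte markers were higher and 1 lower, and 4 of 8 fibroblast markers were lower. Of 5 tested erythroid markers 2 were higher, as were 2 of 7 tested mesothelial markers. In that comparison 570 of all 13916 tested genes (4.1%) were higher, among 1145 that passed in either direction. The part of cell composition in the changes of the complexes' genes was not tested.

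The 6 genes that were not tested were Uqcrc1, Atp5a1, Cox7b2 (0 to 4.66), Cox8c, Cox20 and the second Atp5o identifier, the last 3 listed at 0 in every library. Cox7b2 and Cox8c are testis isoforms. Hnrnpu covers 91.1% of the exon bases of Cox20 on the opposite strand, and other genes cover 100% of those of the second Atp5o identifier on the same strand. For Uqcrc1 and Atp5a1 the values near 0 have no such overlap beside them, and what they say about the mRNA was not tested.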

How the data were processed

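The authors' deposited table holds, per gene and library, a normalised signal. Per the submitters' processing notes, reads were handled with STAR, SAMtools and featureCounts on build GRCm38.p6; per the labels' protocols, RNA was extracted with TRIzol and libraries came from a stranded mRNA kit. Versions, annotation release, strand setting and normalisation: not given in the sources used here. Each value was a whole number of reads divided by a size factor per library: all values came out whole within 0.01 of a read. The factor was a library's median ratio of reads to each gene's geometric mean, over genes with reads in all 12 libraries. Factors recomputed in this way differed from those found by at most 5.82e-10. Gene types, coordinates and transcript lengths came from the GENCODE annotation of the same build, which held 55480 of the 56350 identifiers, and promoters from RefSeq.

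The 13916 genes with 3 or more libraries at a value of 10 or higher were tested with limma 3.58.1 (trend, robust) in R 4.3.3 on log2(value + 1), a scale that understates changes of low genes, with 4 group means over 12 libraries and Benjamini-Hochberg adjustment over all genes at 0.05. A log2 change or difference is the mean of the group named first minus that of the other, ± its SE. Isoform ratios were compared with exact permutation tests (400 arrangements, smallest p 0.005; 20 within a genotype). On the recovered reads edgeR 4.0.16 called 3002 genes after TAC in controls, where limma called 3006; DESeq2 1.42.0 was a further alternative. Other alternatives were TMM and total-count scaling, no filter, pseudocounts of 0.5 and 5, a loess trend on length and GC removed (span 0.5), the replicate number as a block, the compared groups alone, and each library left out. The fit was tested on simulated data.

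The genes and the lists of other genes, regulators and markers were chosen with earlier results of these data known. Values in all 12 libraries were given for the isoform pairs, the smallest and largest p of each class after TAC in controls, genes that passed elsewhere, and core subunits; the others are given by range or change. Reads shared with copies or overlapping genes cannot be assigned, since the counting settings are unknown. No replicates were alike within counting noise (chi-square per gene 5.32 to 57.0 between libraries of a group).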

Additional observations from a re-analysis of the deposited data

How the results depend on the processing

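After TAC in controls, the number of the 50 genes that passed was 37 with edgeR, 38 with DESeq2, 37 with TMM, 35 with total-count scaling, 34 with no filter (53 tested), 37 with either pseudocount, 27 with the compared groups alone, and 26 to 38 with 1 library left out. For knockouts against controls after TAC it was 26, and 27 with edgeR, 35 with DESeq2, 17 with total-count scaling, 17 with the length and GC trend removed, 31 with the compared groups alone and 2 to 38 with 1 library left out. For the difference of the TAC effects it was 0, and 13 with DESeq2, 2 with no filter (53 tested) and 0 to 14 with 1 library left out. The other 2 comparisons had 0 under every alternative run. The causes were not tested.

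Correlations of the deviations of libraries with the same replicate number were -0.07 to 0.25, with 3 of 18 over 0.1. Between libraries with different numbers they were -0.25 to 0.16, with 2 of 36 over 0.1. Whether the replicate numbers pair the libraries was not tested. With the replicate block 37 genes passed after TAC in controls (36 lower, 1 higher), 26 in knockouts against controls after TAC and 0 in each of the other comparisons; with the block and the trend removed together, 30 and 19 passed in the first 2.

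With the trend removed, the log2 difference of ratios was -0.13 for Cox7a1 over Cox7a2, -0.38 for Cox8b over Cox8a, -0.0095 for Cox4i2 over Cox4i1 and -0.23 for Atp5g1 over Atp5g3. With 1 library left out, the ranges were -0.26 to -0.21, -0.38 to -0.30, -0.045 to 0.081 and -0.010 to 0.073. They were -0.10 to -0.02 for Cox6a2 over Cox6a1 and 0.07 to 0.45 for Atp5g2 over Atp5g3. Among genes that did not pass, signs turned: after TAC in controls, Uqcrc2 had log2 changes of -0.021 with edgeR, -0.014 with DESeq2, -0.13 with the trend removed (with or without the block), and -0.19 to 0.13 with 1 library left out. Cox18 had 0.0047 with the trend removed, Atp5g2 had -0.16 to 0.48 with 1 library left out, and Uqcc1 -0.19 to 0.11. In knockouts against controls after TAC, Atp5g2 had -0.17 with the trend removed and -0.013 to 0.31 with 1 library left out, Atp5s had -0.028 with total-count scaling and -0.010 with the trend removed, and Cox18 had -0.049 with the trend removed and -0.0013 without knockout TAC replicate 2. Depth limits Cox6b2, Atp5g2, Cox16, Cox11 and Cox7c, whose values stayed under 100 in every library.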
